A study of Mus musculus with 12 samples.

Results

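Transcripts of 36 mouse genes that drive mitosis were followed across cells with and without Stat5a and Stat5b, before and after a treatment. The list was set by gene name: cyclins A2, B1 and B2 with Cdk1 and the Cdc25 phosphatases, the mitotic kinases, the chromosomal passenger complex, the spindle checkpoint and the anaphase-promoting complex, kinetochore proteins, spindle motors, and the proteins of cytokinesis. Of the 36 genes, 35 had at least 1 measured probe set (a set of short probes that reads 1 transcript), and all 35 passed the filter on dim values, among 11815 genes tested in all. The B-type cyclin gene Ccnb1 had no probe set under its name in the platform annotation and was not analysed here. The 4 groups had 3 arrays each. Control cells carried Stat5a and Stat5b, which encode the transcription factors that signal for GM-CSF and other cytokines, and knockout cells came from mice that lacked both genes in blood cells, each without and with the treatment. The labels write the treatment only as with or without GMP, letters that also occur in the names of untreated samples, so it is called the treatment here. The driver of the deletion, the strain, the age and sex of the animals, the cells taken and the length of treatment are not given in the sources used here. Array titles give 3 dates, called date 1, date 2 and date 3, with 1 array of each group on each date. On date 2 the treated knockout array carries another number tag than the other 3 arrays of that date. The labels do not say whether separate animals gave the samples. The p-values therefore measure no more than how far these samples spread, some of which may be technical.

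Mitosis genes are switched on late in the cell cycle and their transcripts are destroyed or no longer made when cells leave it, so they serve as a readout of how many cells are dividing. Cyclin A2 and cyclin B with the kinase Cdk1 start mitosis, Aurora and Polo kinases build the spindle, kinetochores attach chromosomes to it, and the checkpoint holds the anaphase-promoting complex until all chromosomes are attached. In the bone marrow, granulocyte-macrophage progenitors divide rapidly and lose this program as they become granulocytes. Many of these genes are held silent in resting cells by the DREAM complex and switched on by B-Myb and FoxM1, through a promoter element called the cell cycle gene homology region (the letters TTTGAA or TTCGAA) that lies near the start site, often with CCAAT boxes bound by NF-Y upstream of it.

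The promoters of the mitosis genes carried these letters more often than promoters at large. The 4 shown belong to the genes that come first by number of calls and then by smallest p among those with an entry in the RefSeq table (assembly GRCm38.p6). Each run is written 5′ to 3′ on the strand of the gene, from 250 bases before the start site to 50 bases from it onwards, and capitals mark every match to a searched motif on either strand.
Cenpf (chr1:189688037-189688336, minus strand): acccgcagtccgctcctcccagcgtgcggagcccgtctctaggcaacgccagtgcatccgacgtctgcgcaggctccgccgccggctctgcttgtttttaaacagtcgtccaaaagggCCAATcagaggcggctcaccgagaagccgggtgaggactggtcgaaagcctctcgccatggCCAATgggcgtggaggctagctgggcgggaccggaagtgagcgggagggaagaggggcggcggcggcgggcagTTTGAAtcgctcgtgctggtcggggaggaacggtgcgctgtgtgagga
Ccnb2 (chr9:70421505-70421804, minus strand): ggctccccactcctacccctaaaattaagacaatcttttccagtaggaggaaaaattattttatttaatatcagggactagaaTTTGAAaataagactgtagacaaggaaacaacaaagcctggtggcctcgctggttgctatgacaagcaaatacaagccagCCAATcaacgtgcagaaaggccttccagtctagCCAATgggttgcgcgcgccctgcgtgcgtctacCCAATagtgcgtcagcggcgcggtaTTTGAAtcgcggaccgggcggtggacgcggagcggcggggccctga
Racgap1 (chr15:99651607-99651906, minus strand): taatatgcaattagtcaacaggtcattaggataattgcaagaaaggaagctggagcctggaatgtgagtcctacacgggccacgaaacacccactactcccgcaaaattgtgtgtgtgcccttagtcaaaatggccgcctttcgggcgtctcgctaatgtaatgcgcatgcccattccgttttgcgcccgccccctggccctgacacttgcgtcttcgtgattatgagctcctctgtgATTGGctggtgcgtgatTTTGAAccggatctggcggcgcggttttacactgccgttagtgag
Ndc80 (chr17:71526808-71527107, minus strand): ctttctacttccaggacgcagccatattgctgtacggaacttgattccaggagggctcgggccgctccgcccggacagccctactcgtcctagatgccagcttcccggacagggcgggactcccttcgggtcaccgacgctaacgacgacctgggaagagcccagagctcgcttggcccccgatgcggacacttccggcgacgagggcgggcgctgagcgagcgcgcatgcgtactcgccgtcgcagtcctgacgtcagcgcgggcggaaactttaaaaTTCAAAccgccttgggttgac
Counting the start site as 0, TTTGAA began at 2 in Cenpf, at 4 in Ccnb2 and at 5 in Racgap1, so these 3 genes hold it at nearly the same place. A second copy began at -167 in Ccnb2. In Ndc80 the letters lay on the opposite strand, at 29. CCAAT began at -132 and -71 in Cenpf and at -87, -54 and -21 in Ccnb2, and on the opposite strand at -12 in Racgap1. The Ndc80 window held no CCAAT.

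Of the 36 mitosis genes, 30 had an entry in the promoter table (Aurkb, Ccna2, Cdc25c, Incenp, Kif20a and Tpx2 did not). A gene with several start sites was counted once if any of its windows held the letters. TTTGAA was present in 23 of the 30 (76.7%) against 20.2% of 27025 genes in the table, and TTCGAA in 4 (13.3%) against 1.80%. CCAAT was present in 24 (80.0%) against 41.1%. A homology region and a CCAAT box together were present in 22 (73.3%) against 8.61%. The E2F letters TTGGCGC occurred in 4 (13.3%, against 2.85%) and TTCGCGC in 1 (3.33%, against 1.81%). The letters of a STAT site, TTCNNNGAA (N is any base), whose last 3 letters can overlap TTTGAA, occurred in the windows of 0 of the 30 genes against 9.55% of all genes, and no match says only that these letters are not in these windows. These shares describe sequences and were not tested.

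The authors' values are MAS5 intensities, called signals here, which compare 1 probe set across arrays but not different genes. In every knockout array Stat5a was low, at 26.7 to 100.6 against 375 to 1147 in control arrays, and Stat5b was at 1.80 to 60.5 against 287 to 1531. Of 12 markers of granulocyte-macrophage progenitors all 12 were measured, and their summed signal was 84425 to 235734. The markers of mature neutrophils (10 of 11 measured) summed to 7118 to 67281, and those of B cells (3 of 7 measured) to 314 to 1107. Those of monocytes and macrophages summed to 16151 to 47186, and those of mast cells and basophils to 4761 to 14274. Such sums compare arrays within 1 list and do not rank cell types or measure purity. The 4 arrays of date 2 stood apart in RNA quality: there Actb had a 3′ to 5′ signal ratio of 20.8 to 266 and Gapdh one of 28.2 to 80.7, where the other dates gave 1.14 to 2.05 and 1.56 to 3.90. Changes are therefore given with date as a block and date by date, and each date has 1 pair of arrays per genotype.

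Most mitosis genes had lower signals after treatment in both genotypes, by modest amounts, and few passed the test singly. In control cells 30 of 35 had a lower fitted value, with a median log2 change of -0.47 against -0.04 over all genes tested, and the medians within dates 1, 2 and 3 were -0.40, -0.48 and -0.38. In knockout cells 30 of 35 were lower, with a median of -0.32 against -0.02, and medians of -0.46, -0.58 and -0.05 on the 3 dates. Both comparisons had the lower value for 28 genes, or 80.0%, against 40.7% of all genes. A log2 change of -0.47 here is a change of log2(signal + 13), a scale that understates changes of dim genes. In samples of many cells, fewer dividing cells and less of a transcript in each cell cannot be told apart.

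Counts of genes are read against the share of all 11815 genes that meet the same rule. In control cells Aurkb alone fell at an adjusted p under 0.05 (limma with Benjamini-Hochberg adjustment over all genes tested), which is 2.86% of the 35 and close to the 2.56% of all genes called lower, and 0 rose (4.21% of all genes did). An unadjusted p under 0.05 was reached by 8 lower genes, 22.9% against 11.8% of all genes, and by 1 higher gene, against 11.5%. Lower signals on all 3 dates were found for 22 of the 35, 62.9% against 27.6%. For 7 genes, 20% against 7.68%, every treated array lay below every untreated one. In knockout cells Cenpf and Aurkb fell, 5.71% against 4.45% of all genes, and 0 rose, against 6.73%. There 10 lower genes had an unadjusted p under 0.05 (28.6% against 13.4%), as did 1 higher gene (against 13.8%). Lower signals on all 3 dates were found for 16, 45.7% against 27%, and 6 genes, 17.1% against 9.9%, had every treated array below every untreated one. The counts of called genes were thus near the background, and the share with a repeated direction was above it.

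**Figure D1:**
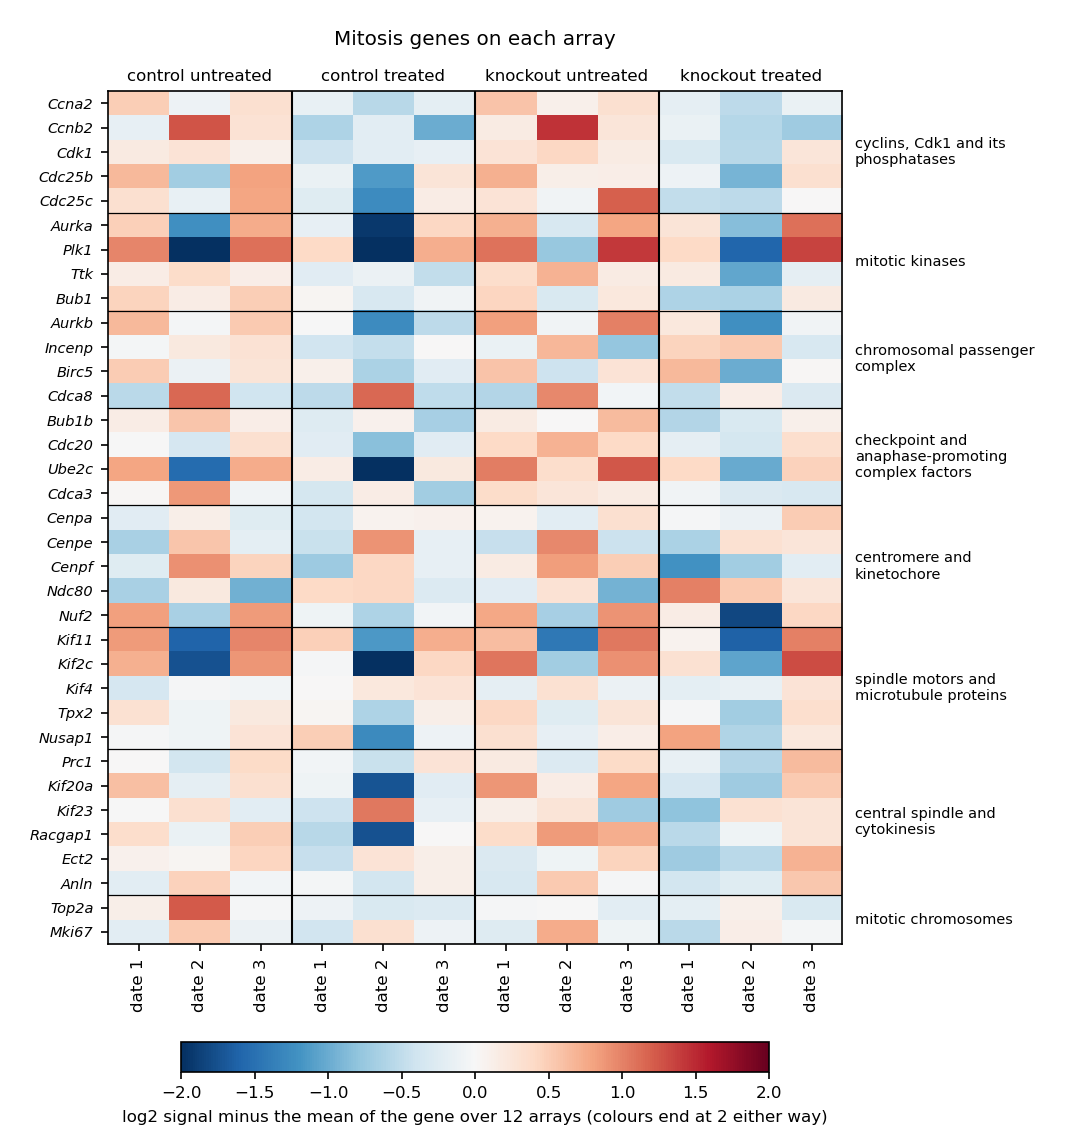
Log2 signal of 35 mitosis genes (rows, by role) on 12 arrays (columns, by group and date), each as its difference from the mean of that gene over the arrays, with red higher, blue lower and colours ending at 2 log2 units. Treated columns are bluer than the untreated columns of the same date for most cyclin, kinase and checkpoint genes, Ndc80 runs the other way, and Plk1, Kif11 and Kif2c are among the darkest blue on date 2.

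By the probe set that stood for each gene, 13 of the 35 had the lower signal with treatment in all 6 pairs. The pairs are 3 dates in 2 genotypes, and 17.6% of all genes also showed this. The 13 included Ccna2, Ccnb2 and Cdc25c among the cyclins and phosphatases, Ttk and Bub1 among the kinases, and Aurkb of the passenger complex. All 4 genes grouped as checkpoint and anaphase-promoting complex factors (Bub1b, Cdc20, Ube2c and Cdca3) were among them. So were Cenpf at the kinetochore, and Kif20a and Racgap1 of the central spindle. Not every other passing set of these genes was lower in all 6 pairs. On date 3 in knockout cells, another set of Bub1b read 2177 without and 2438 with treatment, and another of Racgap1 769 and 926. On date 2 in control cells, another set of Cdc25c read 906 and 1320, and another of Bub1 175 and 273. Ndc80 was the only one of the 35 with a higher signal in all 6 pairs, which 14.4% of all genes showed. Of these 13 genes 9 had a promoter in the table, and all 9 held a homology region together with a CCAAT box. Among the other 22 measured genes 20 had a promoter, of which 16 held a homology region and 13 held both. This split of the promoters was made after the signals were seen and was not tested.

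**Figure D2:**
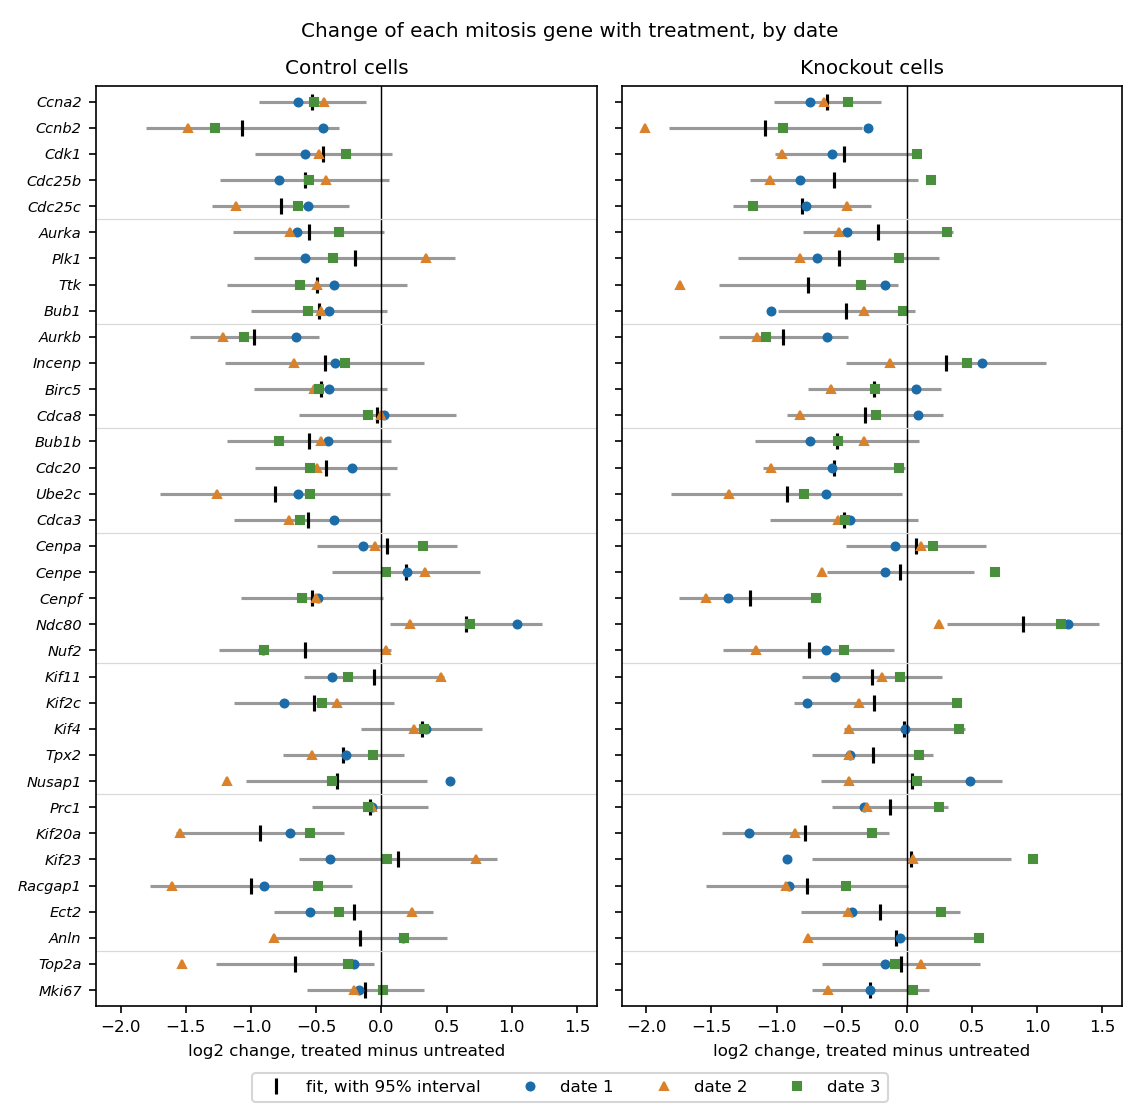
Change of each mitosis gene with treatment (log2, treated minus untreated) in control cells (left) and knockout cells (right). Black ticks with grey bars are the fit with its 95% interval and coloured points are the 3 dates. Most points lie left of 0 in both panels, Aurkb and Cenpf in knockout cells lie well below it on every date, and Ndc80 lies above it.

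The cyclin genes and Cdk1 had lower signals with treatment in control cells. All 5 measured genes of this role were lower on each of the 3 dates in control cells, with a median of -0.59, and 3 of the 5 in knockout cells, with a median of -0.61. Ccna2, cyclin A2, acts from S phase to early mitosis. Its signals in control cells were 3774, 2486 and 3359 on dates 1, 2 and 3 without treatment and 2421, 1827 and 2345 with it. In knockout cells they were 3998, 2889 and 3348 without and 2377, 1857 and 2449 with treatment. By this probe set every treated array lay below every untreated one in both genotypes. The fitted changes of -0.53 ± 0.18 (SE, adjusted p = 0.117) and -0.61 ± 0.18 (SE, adjusted p = 0.0608) did not pass the threshold. The second set of Ccna2, with a median signal of 2277 against 2468, overlapped in both genotypes. There a treated array read 2493 against an untreated 2197 in control cells, and 3190 against 2054 in knockout cells. Ccnb2, a B-type cyclin, read 1543, 4192 and 2124 without and 1129.8, 1491 and 868 with treatment in control cells. In knockout cells it read 1957, 4732 and 2053 without and 1587, 1163 and 1058 with treatment. The groups did not overlap in either genotype, and the drop was steepest on date 2, where the untreated arrays were the highest of all. The log2 changes were -1.07 ± 0.33 (SE, adjusted p = 0.0849) in control and -1.09 ± 0.33 (SE, adjusted p = 0.0636) in knockout cells.

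Cdk1, the kinase that the cyclins activate, had signals of 4742, 5052 and 4503 without and 3158, 3618 and 3728 with treatment in control cells, with no overlap. In knockout cells the signals were 5071, 5596 and 4724 without and 3399.8, 2869 and 4995 with treatment, and the treated array of date 3 lay within the untreated range. The log2 changes were -0.45 ± 0.24 (SE, adjusted p = 0.296) and -0.49 ± 0.24 (SE, adjusted p = 0.219). Cdc25c removes the inhibitory phosphates from Cdk1 at mitotic entry. Its signals were 354, 254 and 498 without and 236, 110.2 and 314 with treatment in control cells, and 344, 269 and 660.2 without and 196, 192 and 284 with treatment in knockout cells. The treated array was the lower one on every date in both genotypes, but the groups overlapped through the low untreated array of date 2. The changes were -0.77 ± 0.24 (SE, adjusted p = 0.0815) and -0.80 ± 0.24 (SE, adjusted p = 0.0562). Cdc25b, its relative that acts at the centrosome, had signals of 126 to 516 over the 12 arrays and was lower on 3 of 3 dates in control cells and on 2 of 3 in knockout cells.

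Among the mitotic kinases, all 4 genes had a lower fitted value in both genotypes and 0 passed the threshold. Bub1, a kinase of the spindle checkpoint, read 2244, 1822 and 2313 without and 1692, 1315 and 1559 with treatment in control cells, where the groups were apart, and 2223, 1331 and 1899 without and 1072, 1059 and 1864 with treatment in knockout cells, where they overlapped through date 3. Ttk, the kinase also known as Mps1 that starts checkpoint signalling, read 885, 1043 and 881 without and 684, 736 and 567 with treatment in control cells and 1026, 1309 and 904 without and 912, 382 and 704 with treatment in knockout cells. The treated array was the lower one on every date, with groups apart in control cells only. Plk1, Polo-like kinase 1, varied more with date than with treatment. Its signals were 2982, 217 and 3241 without and 1984, 278 and 2506 with treatment in control cells, and 3235, 887 and 4037 without and 2001, 496 and 3879 with treatment in knockout cells. Every signal of date 2 lay below every signal of dates 1 and 3. The changes with treatment were -0.20 ± 0.35 (SE, adjusted p = 0.779) and -0.52 ± 0.35 (SE, adjusted p = 0.371), and in control cells date 2 pointed the other way. Aurka, the Aurora kinase of the spindle poles, ranged from 420.4 to 3529 and was lower on 3 of 3 dates in control cells and on 2 of 3 in knockout cells.

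Aurkb was the one mitosis gene called in both genotypes. It encodes Aurora B, the kinase of the chromosomal passenger complex, which corrects wrong attachments of chromosomes to the spindle. In control cells its signals were 1460.1, 902 and 1349.9 without and 925, 381 and 642 with treatment. In knockout cells they were 1663, 885 and 1879 without and 1082, 392 and 883 with treatment. The treated array was the lower one on each date, at about the same distance in both genotypes, and the ranges overlapped only through the low untreated array of date 2. It fell by a log2 change of -0.97 ± 0.22 (SE, adjusted p = 0.0323) in control cells, a 1.97-fold drop, and of -0.95 ± 0.22 (SE, adjusted p = 0.025) in knockout cells, a 1.93-fold drop. Without the date 2 arrays the changes were -0.85 (adjusted p = 0.0588) and -0.85 (adjusted p = 0.0549). The call in control cells was lost when any 1 of the 6 control arrays or the treated knockout array of date 3 was left out, with a highest adjusted p of 0.136. The call in knockout cells was lost when any 1 of the 3 untreated knockout arrays or the treated ones of dates 2 or 3 was left out, with a highest adjusted p of 0.12. Both calls were also lost with no filter on low values, with only the 2 groups compared and with no replicate block, where the adjusted p was 0.487 in control and 0.406 in knockout cells, and the control call with median centring.

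The partners of Aurora B were less uniform by the probe sets that stood for them. Birc5, survivin, which docks the complex at centromeres, read 1891, 1216 and 1582 without and 1425, 847 and 1130.1 with treatment in control cells, lower on every date. In knockout cells it read 1969.8, 993 and 1592 without and 2070.2, 658 and 1343 with treatment, with date 1 slightly higher. Incenp, the scaffold of the complex, was lower with treatment on 3 of 3 dates in control cells (731, 862 and 920.0 against 569, 536 and 754) and higher on 2 of 3 in knockout cells (682, 1190.0 and 432 against 1022, 1086 and 597). Cdca8, borealin, had signals from 9219 to 30607, and the treated and untreated arrays of control cells were within 0.11 log2 units of each other on every date. The other 2 probe sets of Cdca8 differed from this one. One read 1034, 523 and 892 without and 792, 199 and 687 with treatment in control cells, and the other dropped from 11755 to 4751 on date 2. Their fitted values in control cells were -0.70 and -0.51, against -0.03, and in knockout cells all 3 sets were lower. None of these 3 genes was called in either comparison.

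All 4 genes grouped here as checkpoint and anaphase-promoting complex factors were lower with treatment by the sets that stood for them. This held on every date in both genotypes, with medians of -0.56 in control and -0.55 in knockout cells, and 0 of the 4 passed the threshold. The checkpoint kinase relative Bub1b, known as BubR1, read 3621, 4809 and 3579 without and 2722, 3482 and 2069.8 with treatment in control cells, with no overlap, and 3653, 3304 and 5078 without and 2175, 2633 and 3507 with treatment in knockout cells. Cdc20, which activates the anaphase-promoting complex, read 3150.4, 2505 and 3934 without and 2697, 1771 and 2686 with treatment in control cells and 4167, 5106 and 4168 without and 2799, 2469 and 4005 with treatment in knockout cells. For Cdc20 the groups overlapped slightly in control cells and not in knockout cells. Ube2c, the ubiquitin-conjugating enzyme of that complex, read 1329.7, 253 and 1289 without and 850.1, 98.2 and 875 with treatment in control cells and 1570.0, 981 and 1832 without and 1018, 373 and 1057 with treatment in knockout cells. Its date 2 signals in control cells were far below those of the other dates. Cdca3, an adaptor for the ubiquitination of cell cycle proteins, ranged from 992 to 2952 and had groups apart in knockout cells.

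Kinetochore and centromere genes went in different directions. In control cells 2 of the 5 were lower by the fit and in knockout cells 3 of 5, with medians of 0.04 and -0.05. Cenpf, a large protein of the outer kinetochore whose transcript peaks in G2 and mitosis, fell in knockout cells. Its signals there were 1754, 2813 and 2207 without and 669, 959 and 1356 with treatment, so all treated arrays lay below all untreated ones. The log2 change was -1.20 ± 0.24 (SE, adjusted p = 0.0144), a 2.3-fold drop, and the call was lost without the untreated knockout array of date 1 (adjusted p = 0.0667). It was also lost with only the 2 groups compared, over means of probe sets and with no replicate block (adjusted p = 0.193, the highest over its alternatives). In control cells the signals were 1325, 2977 and 2139 without and 941, 2097 and 1398 with treatment, with differences of -0.49, -0.50 and -0.61 log2 units on dates 1, 2 and 3, and the change of -0.53 ± 0.24 (SE, adjusted p = 0.225) did not pass.

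Ndc80 had higher signals with treatment, unlike most of the list. It encodes the subunit of the Ndc80 complex that grips microtubules. Its signals in control cells were 397, 718 and 318 without and 831, 839 and 517 with treatment. In knockout cells they were 534, 767 and 319.6 without and 1278, 913 and 743 with treatment. On every date and in both genotypes the treated array had the higher signal, with the smallest step on date 2, and the groups overlapped through the untreated array of date 2. The log2 changes were 0.65 ± 0.26 (SE, adjusted p = 0.171) in control and 0.89 ± 0.26 (SE, adjusted p = 0.0566) in knockout cells, neither past the threshold. Without date 2 they were 0.86 (adjusted p = 0.0442) and 1.21 (adjusted p = 0.0151), both past it. Nuf2, which pairs with Ndc80 in that complex, went the other way: its signals were 2489.6, 888 and 2537 without and 1323, 912 and 1355 with treatment in control cells and 2410.0, 884 and 2626 without and 1560.2, 389.9 and 1873 with treatment in knockout cells. It was lower with treatment in 5 of the 6 pairs. Without date 2, Nuf2 passed in control cells, at -0.90 (adjusted p = 0.0298), and so did the phosphatase gene Cdc25c in knockout cells, at -0.98 (adjusted p = 0.0305). In that setting 1 of the 35 was called lower and 1 higher in control cells, against 458 and 688 of all 11815 genes. In knockout cells 2 were called lower and 1 higher, against 578 and 807. These calls are therefore not read as results about the mitosis genes. Cenpa, the histone variant that marks centromeres, ranged from 1989.9 to 3670.4, and the kinetochore motor Cenpe from 691 to 2143, with treated and untreated arrays mixed in both.

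**Figure D3:**
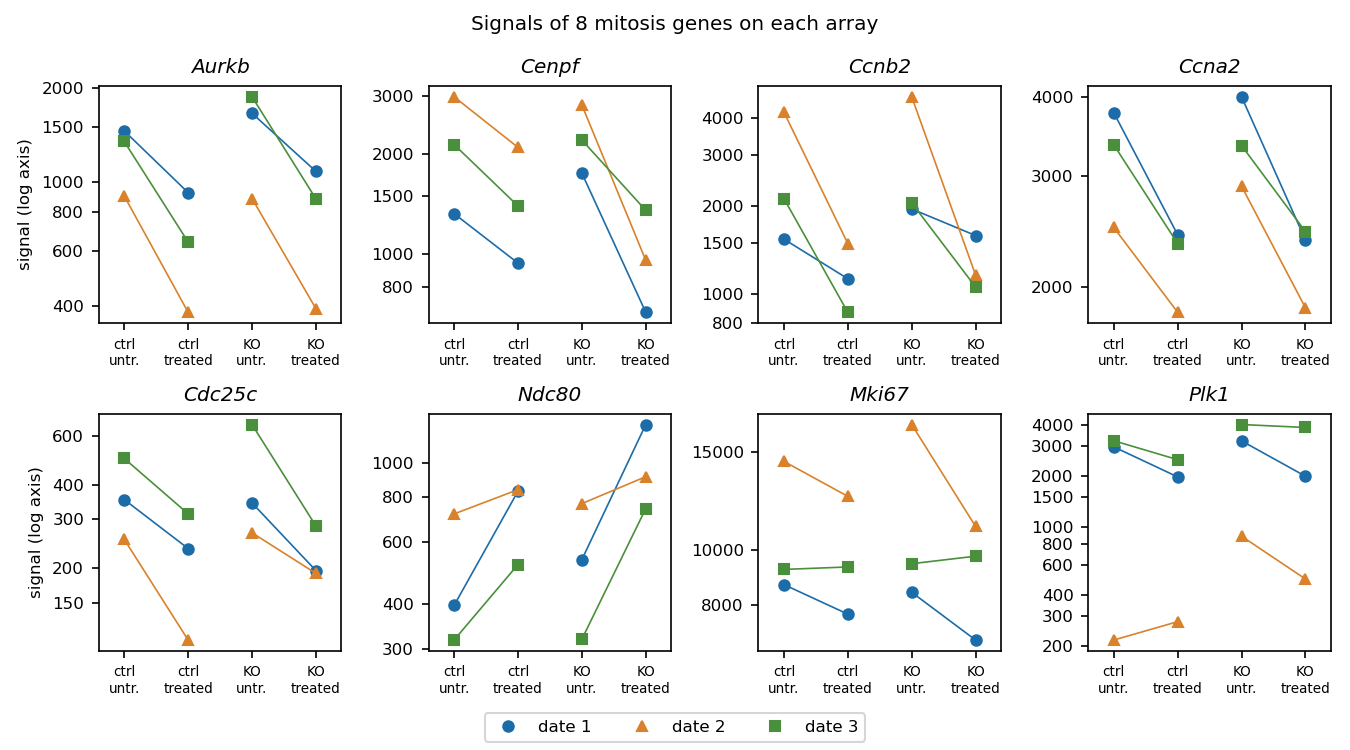
Signals of 8 mitosis genes (log axis, 1 scale per gene) in control (ctrl) and knockout (KO) cells, untreated (untr.) and treated, with lines joining the arrays of a date. Aurkb, Cenpf, Ccnb2, Ccna2 and Cdc25c drop along all 6 lines and Ndc80 climbs along all 6, while Mki67 is flat on date 3 and Plk1 is set mainly by date.

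None of the spindle motors and microtubule proteins was called. In each genotype 4 of these 5 genes were lower by the fit, with medians of -0.29 in control and -0.25 in knockout cells. Kif2c, a motor that takes microtubules apart at centromeres, read 466, 74 and 522 without and 272, 55.6 and 377 with treatment in control cells. It was lower on every date there, with a change of -0.52 ± 0.27 (SE, adjusted p = 0.3), and in knockout cells its dates differed by -0.77, -0.37 and 0.38 log2 units. The 4 passing probe sets of Kif2c did not all point the same way. Kif11, the motor that separates the spindle poles, ranged from 301 to 1995, with its 4 lowest signals on date 2. Kif4, a chromosome-bound motor, read 475, 593 and 585 without and 607, 707 and 738 with treatment in control cells. It was higher with treatment on every date there, with groups apart, whereas its 3 dates in knockout cells differed by -0.02, -0.44 and 0.40 log2 units. Tpx2, which activates Aurora A, read 1791, 1359 and 1647 without and 1478, 935 and 1571 with treatment in control cells, lower on every date, and was lower on 2 of 3 dates in knockout cells. The microtubule bundler Nusap1 ranged from 1035 to 4417.

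By the sets that stood for them, the central spindle and cytokinesis genes split into Kif20a and Racgap1, lower in all 6 pairs, and others. Kif20a, a motor of the central spindle, read 945, 544 and 776 without and 578, 177 and 526 with treatment in control cells, and 1143, 682 and 1080.1 without and 487, 371 and 895 with treatment in knockout cells. It was lower in all 6 pairs, and its change in control cells was -0.93 ± 0.29 (SE, adjusted p = 0.0845). Racgap1, which with the motor Kif23 forms centralspindlin, read 1043, 746 and 1151 without and 551, 236 and 817 with treatment in control cells and 1059.8, 1479 and 1364 without and 560.3, 771 and 984 with treatment in knockout cells. Its change in control cells was -1.0 ± 0.35 (SE, adjusted p = 0.118), and the knockout groups were apart. Kif23 itself read 1818, 2301 and 1592 without and 1382, 3811 and 1642 with treatment in control cells and 1994, 2190.4 and 1113 without and 1050.3, 2267 and 2194 with treatment in knockout cells. Dates 1 and 3 of Kif23 pointed in opposite directions in both genotypes. Prc1, which bundles the midzone microtubules, ranged from 2129.5 to 4965, Ect2, the exchange factor that starts the contractile ring, from 1527 to 4059, and Anln, anillin, from 1278 to 2406.

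The proliferation marker Mki67, which coats mitotic chromosomes, was not called in either genotype. It read 8687, 14421 and 9247 without and 7694, 12489 and 9341 with treatment in control cells and 8416, 16779 and 9466 without and 6916, 11033 and 9764 with treatment in knockout cells. Dates 1 and 2 were lower and date 3 was level in both genotypes, and the changes were -0.12 ± 0.20 (SE, adjusted p = 0.769) and -0.28 ± 0.20 (SE, adjusted p = 0.41). Top2a, topoisomerase II alpha, which untangles sister chromatids, read 8427, 18170.0 and 7702 without and 7282, 6286 and 6454 with treatment in control cells and 7679, 7764 and 6722 without and 6842, 8378 and 6315 with treatment in knockout cells. The untreated control array of date 2 was far above all others. The change in control cells was -0.66 ± 0.27 (SE, adjusted p = 0.175), and without date 2 it was -0.23. In knockout cells the change was -0.05 ± 0.27 (SE, adjusted p = 0.932).

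Array by array, the medians of the 35 genes showed 1 array that stood out. Taken as the difference from the mean of each gene, the medians on dates 1, 2 and 3 were 0.14, -0.03 and 0.29 in untreated control cells and -0.15, -0.44 and -0.10 in treated control cells. In knockout cells they were 0.32, 0.12 and 0.27 untreated and -0.15, -0.55 and 0.25 treated. Treated and untreated control arrays did not overlap, while the treated knockout array of date 3 lay at the level of untreated arrays. Without that array, the median log2 change of the mitosis genes, treatment in knockout cells, was -0.51 in place of -0.32. That array was picked for its high median, so the deeper drop without it follows from the choice. Its 3′ to 5′ ratios, 1.32 for Actb and 1.83 for Gapdh, lay in the range of dates 1 and 3. Leaving out date 2 instead gave -0.25. The medians of all genes stayed between -0.05 and 0.07 on every array.

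**Figure D4:**
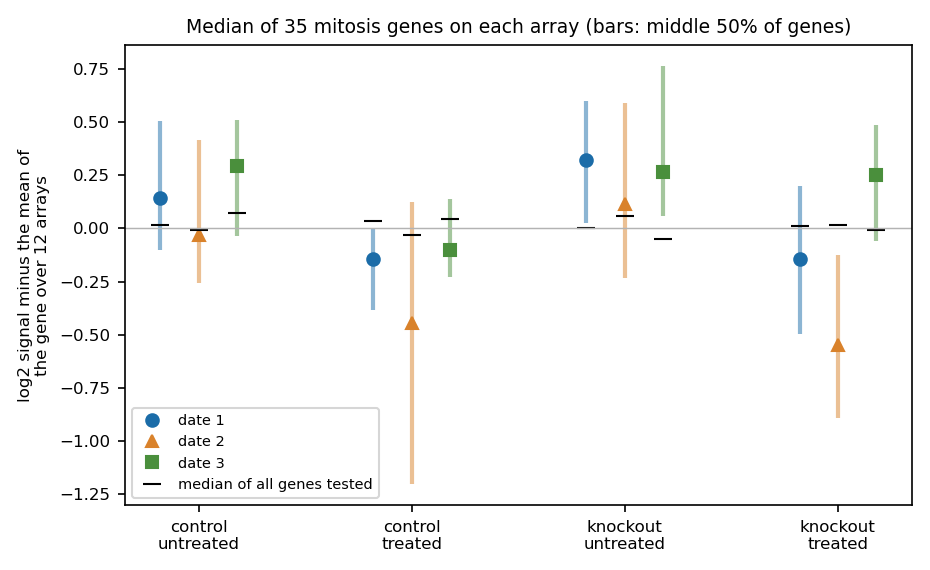
Median of the 35 mitosis genes on each array (log2 signal minus the mean of the gene over 12 arrays) by group, with markers for the 3 dates, bars for the middle 50% of the genes and black dashes for the median of all genes tested. Treated arrays are the lower ones on each date, by the least in knockout cells on date 3, and the bars are longest on date 2.

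Whether the treatment acted differently in knockout cells was tested as a difference of the responses (knockout minus control). None of the 35 genes was called by limma, and 0 had an unadjusted p under 0.05, where the shares over all genes were 0% and 2.46%. The median difference was 0.01, with 17 genes below 0 and 18 above it. The dates disagreed, with medians of -0.04, -0.11 and 0.28 and with 20, 20 and 6 genes below 0 on dates 1, 2 and 3. Cenpf had the smallest p, with a difference of -0.67 ± 0.35 (SE, adjusted p = 1) and a 95% interval of -1.44 to 0.10. Next came Top2a at 0.62 (interval -0.24 to 1.47), through its date 2 array, and Incenp at 0.74 (interval -0.34 to 1.82), which was above 0 on 3 of 3 dates. Kif4, Aurka and Nusap1 followed at -0.33, 0.34 and 0.38. For Aurkb the difference was 0.03 with an interval of -0.68 to 0.73, for Cdk1 -0.04 (-0.78 to 0.70), for Plk1 -0.32 (-1.41 to 0.77) and for Mki67 -0.16 (-0.79 to 0.47). The median half-width of these intervals was 0.83 log2 units, so differences of up to about that size lie within a typical interval, and the genes are not shown to respond alike.

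Knockout and control cells were then set side by side at each state. Without treatment, 0 of the 35 genes were called (0.0169% of all genes were) and 1 had an unadjusted p under 0.05 (2.22% of all genes). That gene was Plk1, higher in knockout cells by 0.80 ± 0.35 (SE, adjusted p = 1), with differences of 0.12, 1.97 and 0.32 on dates 1, 2 and 3, and by 0.22 without date 2. Ube2c and Cdc20 came next, at 0.88 ± 0.40 (SE, adjusted p = 1) and 0.50 ± 0.24 (SE, adjusted p = 1), and date 2 gave the widest step in both, at 1.90 and 1.02. Top2a and Kif2c followed at -0.52 and 0.48. A brighter set of Cdc20, marked as cross-hybridizing, read 6621, 19319 and 8125 in control and 7187, 16078 and 10354 in knockout cells without treatment. The remaining set of Cdc20 was higher in knockout cells on every date. The fixed examples Aurkb, Cdk1 and Mki67 differed by 0.21 (interval -0.29 to 0.71), 0.10 (-0.42 to 0.63) and 0.07 (-0.38 to 0.52). The median over the 35 was 0.10, against -0.01 over all genes. Of the 35, 25 were higher in knockout cells, against 5785 of 11815 genes, and 10 were higher on all 3 dates, 28.6% against 13.3% of all genes.

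With treatment, 0 of the 35 were called (0.11% of all genes) and 3 had an unadjusted p under 0.05, 8.57% against 9.72% of all genes. Aurka was higher in knockout cells by 0.73 ± 0.26 (SE, adjusted p = 0.506) and Kif2c by 0.75 ± 0.27 (SE, adjusted p = 0.506), each on 3 of 3 dates, and Cenpf was lower by -0.55 ± 0.24 (SE, adjusted p = 0.514). The signals of Aurka with treatment were 1456, 420.4 and 2196 in control and 1953, 906 and 3529 in knockout cells, and those of Kif2c were 272, 55.6 and 377 and 347, 127 and 705. By these sets the knockout array was the higher one on each date in both genes, and the groups overlapped, with date 2 lowest. A brighter set of Kif2c, marked as cross-hybridizing, read 1965, 4215 and 2136 in control and 1928, 2163 and 3296 in knockout cells with treatment. No other passing set of Kif2c was higher in knockout cells on every date. The median over the 35 was 0.08, against 0.01 over all genes. Of the 35, 24 were higher, against 5997 of 11815 genes, and 10 were higher on all 3 dates, 28.6% against 16.5%. By date the medians of the 35 were 0.02, -0.14 and 0.32, and without date 2 their median was 0.22. Comparisons between the genotypes share arrays with the treatment comparisons, so these values are not separate evidence.

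Other genes of the cell cycle were taken as lists chosen by function, with earlier results of these data known. Their shares beside all genes are therefore descriptions and not independent support. Of 74 further mitosis genes 72 were measured: 56 were lower in control cells (median -0.19) and 58 in knockout cells (median -0.21). Wee1, the kinase that restrains Cdk1, and the centromere gene Cenpm fell in both genotypes, Spc24 of the Ndc80 complex fell in knockout cells, and Dsn1 of the kinetochore rose in both. Dsn1 read 758, 608 and 774 without and 1625, 1312 and 1566 with treatment in control cells, and 854, 758 and 825 without and 1589.5, 1270.3 and 1948 with treatment in knockout cells, so that every treated array lay above every untreated one. Its changes were 1.06 ± 0.19 (SE, adjusted p = 0.0116) and 0.95 ± 0.19 (SE, adjusted p = 0.0136). Those of Wee1 were -1.20 ± 0.22 (SE, adjusted p = 0.0122) and -1.07 ± 0.22 (SE, adjusted p = 0.0147). The called genes were 2.78% of this list lower and 1.39% higher in control cells, against 2.56% and 4.21% of all genes, and 4.17% and 1.39% in knockout cells, against 4.45% and 6.73%, so the list had calls near or below the background.

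Of 41 S phase genes 39 were measured, of which 38 were lower in control cells (median -0.64) and 36 in knockout cells (median -0.46), 97.4% and 92.3% against 53.2% and 51.8% of all genes. Tk1, Rrm2, Mcm2, Lig1 and Dut fell in control cells, and Gins1, Mcm2, Dut, Cdc6 and Lig1 in knockout cells, in each case 12.8% of the list, against 2.56% and 4.45% of all genes called lower. Tk1, thymidine kinase, had the lowest value in each genotype, at -1.82 ± 0.46 (SE, adjusted p = 0.0433) and -1.46 ± 0.46 (SE, adjusted p = 0.0689), and passed in control cells. The difference between the S phase list and the mitosis genes was not tested. Of 24 regulators of mitotic transcription 23 were measured, with medians of -0.08 and -0.03. In control cells 0 were called, against 2.56% lower and 4.21% higher of all genes. At an unadjusted p under 0.05 were 1 lower and 1 higher gene, each 4.35%, against 11.8% and 11.5%. E2f2 rose in knockout cells, by 1.39 ± 0.38 (SE, adjusted p = 0.044), which is 4.35% of the list against 6.73% of all genes. In control cells it read 616, 192 and 568 without and 823, 180 and 1171 with treatment. The difference of its responses, knockout minus control, was 0.94 ± 0.54 (SE) and was not called.

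Of 21 brakes of the cell cycle 18 were measured: 3 rose in control cells (Cdkn1a, Trp53inp1 and Btg1) and 6 in knockout cells (these 3 with Ccng2, Gadd45b and Mxd1), and 0 fell in either. These are 16.7% and 33.3% of the list, against 4.21% and 6.73% of all genes called higher. Their medians were 0.28 and 0.66. Cdkn1a, the inhibitor p21 of cyclin-dependent kinases, read 948, 481 and 537 without and 10009, 5164 and 7417 with treatment in control cells. In knockout cells it read 1167, 456 and 643 without and 7771, 11157 and 7158 with treatment. All treated arrays lay far above all untreated ones in both genotypes. The changes were 3.51 ± 0.32 (SE, adjusted p = 0.000398) and 3.58 ± 0.32 (SE, adjusted p = 0.00036). Whether these changes and those of the mitosis genes are linked was not tested.

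Some markers of cell types were called with treatment, in short lists where 1 gene is a large share. Of the 12 progenitor markers 10 were lower in each genotype, with medians of -0.35 in control and -0.44 in knockout cells. In control cells 1 was called lower (8.33%, against 2.56% of all genes), and 1 was called higher in each genotype. The latter is 8.33%, against 4.21% of all genes in control and 6.73% in knockout cells. The summed B lineage signal was 596 to 959 without and 314 to 408 with treatment in control cells, and 745 to 1107 and 322 to 689 in knockout cells. Of the B lineage markers Cd79a, Ebf1 and Ms4a1 did not pass the filter. The summed neutrophil markers were 7118 to 67281 without and 12062 to 26831 with treatment in control cells, and 8010.4 to 28436 and 12471 to 45753 in knockout cells. No B lineage or neutrophil marker was called in either genotype. Of the 6 monocyte and macrophage markers that passed the filter, 1 fell in each genotype (16.7%, against 2.56% and 4.45% of all genes). The list medians were 0.10 in control and -0.43 in knockout cells. Of 7 erythroid markers 1 fell in control cells (14.3%, against 2.56% of all genes, with medians of -0.19 and -0.06). Of 6 mast cell and basophil markers 1 fell in knockout cells (16.7%, against 4.45% of all genes, with medians of -0.64 and -0.43). Of 7 stem and early progenitor markers 1 fell and 1 rose in knockout cells (medians -0.11 and -0.16), where 4.45% and 6.73% of all genes did. The part of cell mixture in the changes of the mitosis genes was not tested.

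Other probe sets of the same genes did not all go the same way. The 35 genes had 67 passing probe sets, of which 51 were lower with treatment in control cells and 50 in knockout cells. Of the 22 genes with several sets, all sets were lower for 11 in control and 12 in knockout cells, all were higher for 1 and 3, and the sets disagreed for 10 and 7. The called sets were those standing for Aurkb and, in knockout cells, Cenpf. The second set of Aurkb, which is marked as cross-hybridizing, had values of -0.75 ± 0.22 (SE, adjusted p = 0.0800) in control and -0.66 ± 0.22 (SE, adjusted p = 0.0920) in knockout cells when every set was fitted. The second set of Cenpf had a median signal of 103.7, and its changes were -0.36 and -0.46. Ndc80 and Ccnb2 had 1 set each. The values of the second set of Racgap1 were -0.38 and -0.18, smaller in size than those of the set that stood for the gene. On date 3 in knockout cells this second set read 769 without and 926 with treatment.

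Signals of date 2 stood far from those of the other dates. The median size of the difference between date 2 and the other dates was 0.63 log2 units over the 35 genes (0.55 over all genes), against 0.23 (0.29) between dates 3 and 1. On date 2, 22 of the 35 were lower, and 8 differed by more than 1 log2 unit. The difference of date 2 from the other dates was -3.76 to -2.01 units for Plk1 in the 4 groups, -2.52 to -1.75 for Kif11, -2.54 to -1.68 for Kif2c and 0.53 to 1.66 for Cdca8. The part of RNA quality in this was not tested. Without date 2, 29 of the 35 genes in control and 27 in knockout cells were still lower with treatment, with medians of -0.44 and -0.25. Of all 11815 genes 6241 and 5966 were lower then.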

How the data were processed

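The authors deposited a linear intensity for each of 45101 probe sets on 12 Affymetrix arrays, for which the submitters' processing notes name MAS5, with no version given in the sources used here. Trimmed means of 500.003 to 500.004 show scaling to 1 level, and MAS5 makes dim values unstable. Names came from the platform annotation: 34945 probe sets with 1 symbol, 932 with several, 9160 with none and 64 controls. Kept were the 21363 sets that exceeded 70.5, the overall median, on 3 or more arrays, and the set with the highest mean log2 value stood for a gene, except that sets marked as cross-hybridizing (IDs ending in _x_at) did so only where no other set was left, even if brighter, as for Aurkb, Cdc20, Cdc25c, Incenp and Kif2c. limma 3.58.1 in R 4.3.3 fitted log2(intensity + 13) over 4 groups with date as a block. Dates pair the arrays: deviations from group means correlated at 0.36 to 0.75 on 18 same-date pairs and at -0.66 to 0.40 on 36 others. The script was tested on simulated data. Array number limits precision. Members and lists were chosen with earlier results of these data known. Statistics are given for called genes, then those of smallest p up to 6, plus Mki67, Top2a, Cdk1, Plk1 and Aurkb; the control changes of Cenpf and Ndc80, the second probe sets and other members' values were added after values were seen. Alternatives covered the block, the constant, the filter, scaling, probe sets, variance trend, array weights and left-out arrays.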

Additional observations from a re-analysis of the deposited data

How the results depend on the processing

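Reported values have date as a block. With no replicate block, the mitosis genes called numbered 0 in control and 0 in knockout cells, against 1 and 2. In treatment in control cells the count was also 0 with no filter, with median centring and with only the 2 groups compared, 8 with array weights (7 lower, 1 higher) and 2 without date 2, and 0 to 2 with 1 array left out (0 without any untreated control array, the treated control arrays of dates 1 or 3, or the treated knockout array of date 3, and 2 without that of date 2). In treatment in knockout cells it was 6 with a constant of 50, 1 with no filter, 4 with median centring, 0 with only the 2 groups compared, 5 with a variance trend and 6 with array weights, and 0 to 5 with 1 array left out, with 0 without the untreated knockout array of date 1, 1 without those of dates 2 or 3 or the treated one of date 3, and 5 without the treated control array of date 2. The number of all genes called moved with the setting as well. Without date 2, 458 of 11815 genes were called lower and 688 higher in control cells, against 303 and 497. With median centring 614 were called lower and 680 higher in knockout cells, against 526 and 795. Such numbers are not given here for every setting, so these counts are not read as results about the mitosis genes. The median log2 change of the mitosis genes in control cells was -0.33 over means of probe sets, -0.36 over each probe set and -0.48 to -0.37 with 1 array left out. Median centring moved the median of all genes in knockout cells from -0.02 to -0.13 and that of the mitosis genes from -0.32 to -0.43. The mitosis genes with a lower value in the difference of the treatment responses numbered 26 with median centring and 7 with array weights, and 11 to 26 with 1 array left out, against 17. In knockout against control without treatment they numbered 6 with median centring against 10, and the median log2 change of the mitosis genes was 0.037 to 0.17 with 1 array left out. In knockout against control with treatment they numbered 18 with median centring, 5 with array weights, 7 without date 2 and 6 to 19 with 1 array left out, against 11. Median centring moved the median of all genes too, from 0.026 to -0.071 in the difference of the treatment responses. In knockout against control that median moved from -0.006 to 0.013 without treatment and from 0.008 to -0.070 with it. Changes of sign occurred only among values that were never called. For Top2a, treatment in knockout cells, the value was 0.0053 with quantile normalization, 0.23 with means of probe sets and -0.17 to 0.023 with 1 array left out. For Plk1, treatment in control cells, it was -0.63 to 0.12 with 1 array left out. For Cdk1, difference of the treatment responses, it was 0.013 with quantile normalization, 0.21 with array weights, 0.18 without date 2 and -0.28 to 0.18 with 1 array left out. For Plk1, difference of the treatment responses, it was 0.052, 0.10 and -0.64 to 0.11 with array weights, without date 2 and with 1 array left out. For Aurkb, difference of the treatment responses, it was -0.015 with quantile normalization, -0.071 with median centring and -0.13 to 0.17 with 1 array left out. For Mki67, knockout against control without treatment, it was -0.0060 without date 2 and -0.049 to 0.16 with 1 array left out, and for Cdk1, knockout against control without treatment, -0.0073 to 0.24. For Mki67, knockout against control with treatment, it was 0.0031 with array weights and -0.22 to 0.0083. For Top2a, knockout against control with treatment, it was -0.023 with array weights, -0.061 without date 2 and -0.13 to 0.22. For Cdk1, knockout against control with treatment, it was -0.014 with median centring and -0.18 to 0.28. The causes were not tested. Signals near background are the least certain on this scale.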
